A study of Mus musculus with 50 samples.

Results

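Mammary gland tumors of mice that were injected with insulin glargine were compared with tumors of mice that were injected with insulin-like growth factor 1 (IGF1). Of the 50 tumors in the series, 20 were used for this comparison, 10 glargine tumors and 10 IGF1 tumors, each from its own mouse. The pair was chosen because the glargine group held the most and the IGF1 group the fewest tumors with partly epithelial gene expression. The study clustered tumors by genes of the epithelial to mesenchymal transition, and the epithelial and mesenchymal genes it names are therefore given below as a description, without a test. Other epithelial and luminal genes are known to be expressed together with them, so their counts and p-values are not independent of the choice of groups. All mice were female p53R270H/+WAPCre animals, 8 weeks of age when the injections began. They carry 1 mutant p53 allele, which Cre recombinase under the promoter of the whey acidic protein gene (Wap) switches on in mammary epithelium. Compounds were injected under the skin every other day until a tumor had formed, and the tumor was taken at 1 cm3, 24 h after the last injection. The dose is not given in the sources used here. The study's authors took EMT-like tumors (tumors that look as if they had passed an epithelial to mesenchymal transition) with a latency time close to the median of their treatment group, so the tumors are not a random sample of either group. The study reported a significantly shorter latency with IGF1, while an earlier onset with glargine was not significant. Age and length of treatment at collection may therefore differ between the groups. Their part cannot be told apart from that of the compound. Tumors are named by the mouse number in their title, and the sample titled IFG1_132 was taken as an IGF1 tumor.

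Glargine is a modified insulin that is used as a long-acting drug. It binds the insulin receptor and, like insulin, also the IGF1 receptor, whereas IGF1 acts mainly through the IGF1 receptor, and both receptors signal through PI3 kinase and through RAS and ERK. The mammary gland consists of luminal epithelial cells, which make milk, and basal myoepithelial cells, which contract, in a bed of fat and connective tissue. In an epithelial to mesenchymal transition, cells lose E-cadherin and their tight junctions and gain vimentin, and the repressors Snail, Slug and Zeb bind E-box motifs in the promoters of epithelial genes.

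Values are RPKM (reads per kilobase of gene length, scaled by the authors for library size). Differences are log2 differences of RPKM + 0.5, glargine minus IGF1, with the standard error from limma, n = 10 tumors per group. Library sizes, recovered from the steps in the low values, were 26.6 to 46.7 M reads (median 41.0) in the glargine tumors and 37.8 to 52.1 M reads (median 42.8) in the IGF1 tumors. Mean library sizes were 39.8 M reads with glargine and 42.5 M reads with IGF1 (two-sided permutation test with 100000 resamples, p = 0.277). No 2 tumors held the same values, and the closest pair, tumors IGF1_136 and IGF1_143, had a Pearson correlation of 0.973 across genes. All 20 tumors expressed the mesenchymal marker Vim at a far higher level than the epithelial marker Cdh1, with RPKM of 2435 to 6102 for Vim and 0.993 to 35.0 for Cdh1. Trp53, the gene with the mutant allele, had an RPKM between 33.6 and 66.8 in the glargine tumors and between 6.60 and 86.6 in the IGF1 tumors, where tumors IGF1_145 and IGF1_158 were lowest. RPKM of the whole gene cannot tell the mutant allele from the other.

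tumors IGF1_124 and IGF1_128 stood apart in their processed pseudogenes (copies of mRNA in the genome that share reads with their parent genes). These 1856 genes took 2.33% and 2.80% of the summed RPKM of all tested genes in tumors IGF1_124 and IGF1_128, against 4.46 to 6.69% in the other 8 IGF1 tumors and 4.95 to 6.65% in the glargine tumors. The counts over all tested genes and by gene class, and the list medians that moved by over 1.5 times without these tumors, are given both ways. Counts within lists are given with these tumors only.

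No gene differed between glargine and IGF1 tumors at an adjusted p-value under 0.05 (limma, Benjamini-Hochberg), that is 0 of 16733 tested genes or 0.0%. The smallest adjusted p was 0.517. At an unadjusted p under 0.05 there were 709 genes with a higher mean in glargine tumors (4.24% of those tested) and 459 with a higher mean in IGF1 tumors (2.74%), and limma voom on estimated reads called 0 genes, with 716 and 445 at an unadjusted p under 0.05. In no gene did all 10 tumors of the first group lie outside the range of the second (0.0%). The log2 difference was above 0 in 49.5% of the tested genes, with a median of -0.0025 over all of them. None of the named genes below passed the adjusted threshold, and their differences are values, not calls.

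The 60.7% share of the glargine side among the genes at an unadjusted p under 0.05 depended on the scaling and on pseudogenes. It was 43.9% after quantile normalization (513 against 656 genes) and 69.6% after upper quartile scaling (845 against 369). Among the 13520 protein-coding genes the counts were 422 and 394, and among the 2055 pseudogenes they were 263 and 11. Without tumors IGF1_124 and IGF1_128 the pseudogene counts were 40 and 46, and those of the protein-coding genes 335 and 371. Over all tested genes they were then 386 and 462, a share of 45.5% on the glargine side.

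Genes of the mammary epithelium had higher medians in glargine tumors. In bulk RNA, fewer cells of a type and less RNA per cell cannot be told apart. The level was not shared by all glargine tumors. By the median of the 6 epithelial genes of the study, tumors 63, 69 and 53 were highest and 5 glargine tumors lay above tumor IGF1_145, the highest of the IGF1 group, while glargine tumor 73 was the lowest of all 20.

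All 6 epithelial genes by which the pair of groups was chosen had a log2 difference above 0, with a median of 0.98. Cdh1, which encodes E-cadherin, lay between 1.15 and 35.0 RPKM (median 6.56) in glargine tumors and between 0.993 and 8.59 (median 3.34) in IGF1 tumors, and 3 glargine tumors (63, 53 and 69) were above the highest IGF1 tumor. Elf5, a transcription factor of the milk-producing luminal lineage, lay between 0.114 and 28.7 RPKM (median 10.8) in glargine tumors and between 0.073 and 7.48 (median 0.772) in IGF1 tumors. For Elf5, 6 glargine tumors lay above the highest IGF1 tumor, while glargine tumor 73 lay among the lowest IGF1 tumors. Log2 differences were 2.33 ± 0.71 for Elf5, 1.15 ± 0.64 for Elf3, 1.09 ± 0.66 for Serpinb5, 0.87 ± 0.60 for Cdh1, 0.87 ± 0.55 for Grhl2 and 0.05 ± 0.47 (SE) for Wnt4. Elf3 and Grhl2 encode transcription factors of epithelia, Serpinb5 encodes the protease inhibitor relative maspin and Wnt4 a ligand of mammary branching. Wnt4 was above 0 by a small amount only, and its sign turned under 13 of the 33 alternative settings.

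Of 35 genes for epithelial junctions, splicing and surface proteases, 33 were tested, of which 30 had a log2 difference above 0 (49.5% over all genes) and 14 were at an unadjusted p under 0.05 with a higher mean in glargine tumors (4.24% over all genes), with 0 on the IGF1 side (2.74% over all genes). Their median difference was 0.90, with a range of 0.74 to 1.04 when each tumor was left out in turn. Prss8 encodes the membrane protease prostasin. Its RPKM lay between 0.448 and 4.35 (median 1.26) in glargine tumors and between 0.049 and 0.621 (median 0.241) in IGF1 tumors, a difference of 1.26 ± 0.44 (SE). For Prss8, 8 of 10 glargine tumors lay above the highest IGF1 tumor. Spint2, an inhibitor of such proteases, lay between 2.85 and 64.5 RPKM (median 12.6) in glargine tumors and between 1.26 and 8.52 (median 3.04) in IGF1 tumors, with 7 glargine tumors above the highest IGF1 tumor. The difference was 1.92 ± 0.68 (SE).

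Epcam and Rab25, from the same list, are described here since their promoters are shown, and they were chosen after their values were seen. Epcam, an adhesion molecule of epithelial cells, lay between 0.529 and 75.6 RPKM (median 12.4) in glargine tumors and between 1.37 and 9.15 (median 2.33) in IGF1 tumors. Rab25, a small GTPase of epithelial membrane transport, lay between 0.159 and 11.2 RPKM (median 2.41) in glargine tumors and between 0.079 and 2.26 (median 0.471) in IGF1 tumors. In both genes 6 glargine tumors lay above the highest IGF1 tumor and tumor 63 was the highest of all, while the lowest tumor was a glargine tumor in Epcam and an IGF1 tumor in Rab25. The E-box motif CAGGTG, or CACCTG on the opposite strand, is the sequence that Snail and Zeb proteins bind. It was searched for in the 250 bases before the first listed start of each gene. It was found in 17.1% of the 27025 promoters of the RefSeq table (GRCm38.p6), in all 4 of the epithelial genes above that have an entry there (Elf3, Elf5, Serpinb5 and Wnt4), in 9 of 18 junction and protease genes and in 8 of 15 luminal genes. A match is a run of letters and not a shown binding site. The promoters of 4 of these genes follow, 5′ to 3′ on the strand of the gene, with the E-box in capitals, to show where the matches lie. Elf5 has 3 matches, Epcam and Rab25 have 2 each and Elf3 has 1.
Elf5, chr2:103411848-103412097, plus strand: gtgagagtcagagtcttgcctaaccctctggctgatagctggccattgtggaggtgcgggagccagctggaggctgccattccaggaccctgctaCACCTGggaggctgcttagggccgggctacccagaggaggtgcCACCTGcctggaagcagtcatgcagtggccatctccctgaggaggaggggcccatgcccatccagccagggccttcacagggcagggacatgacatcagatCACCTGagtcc
Elf3, chr1:135258473-135258722, minus strand: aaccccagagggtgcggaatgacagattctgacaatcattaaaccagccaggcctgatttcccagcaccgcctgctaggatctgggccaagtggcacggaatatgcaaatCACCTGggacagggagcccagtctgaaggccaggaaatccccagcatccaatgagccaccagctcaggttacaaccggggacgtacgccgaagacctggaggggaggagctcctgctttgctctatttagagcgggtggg
Epcam, chr17:87635729-87635978, plus strand: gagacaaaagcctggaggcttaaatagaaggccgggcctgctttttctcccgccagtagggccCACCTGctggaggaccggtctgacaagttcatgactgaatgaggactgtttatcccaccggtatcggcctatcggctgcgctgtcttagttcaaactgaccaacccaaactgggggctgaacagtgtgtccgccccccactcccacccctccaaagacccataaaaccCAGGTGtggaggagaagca
Rab25, chr3:88548280-88548529, minus strand: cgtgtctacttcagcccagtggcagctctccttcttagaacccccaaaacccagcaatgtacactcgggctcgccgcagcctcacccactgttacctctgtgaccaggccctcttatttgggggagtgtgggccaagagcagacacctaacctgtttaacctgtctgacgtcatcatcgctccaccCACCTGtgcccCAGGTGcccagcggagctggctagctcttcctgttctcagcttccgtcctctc

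Among 20 genes of the luminal lineage, 17 were tested, all 17 had a log2 difference above 0 (49.5% over all genes), and 5 were at an unadjusted p under 0.05 with a higher mean in glargine tumors and 0 with a higher mean in IGF1 tumors (4.24% and 2.74% over all genes). The median difference was 0.65. Prlr, the prolactin receptor, which drives milk gene expression through STAT5, had the smallest p of the genes with a higher mean in glargine tumors once pseudogenes and predicted genes were set aside. It lies on chromosome 15 (10177238 to 10349180 in GRCm38), where the annotated gene Gm21973 overlaps it on the same strand, so reads in the overlap could belong to either. Prlr lay between 1.01 and 16.4 RPKM (median 4.85) in glargine tumors and between 0.129 and 5.43 (median 0.853) in IGF1 tumors, a difference of 1.79 ± 0.45 (SE), unadjusted p = 0.000219, adjusted p = 0.517. All 10 glargine tumors lay above the IGF1 median and 4 lay above tumor IGF1_145, the highest of its group. In the untreated, insulin and X10 tumors the median RPKM of Prlr was 2.59, 0.941 and 3.29, all between the medians of the groups compared, with insulin close to IGF1. X10 is an insulin analog. Ehf, an epithelial transcription factor, lay between 0.654 and 170 RPKM (median 13.9) in glargine tumors and between 0.222 and 6.42 (median 1.499) in IGF1 tumors, a difference of 2.37 ± 0.75 (SE). The keratins Krt8 and Krt18, which mark simple epithelia, overlapped more. Krt8 lay between 30.5 and 512 RPKM in glargine tumors and between 2.39 and 444 RPKM in IGF1 tumors.

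**Figure D1:**
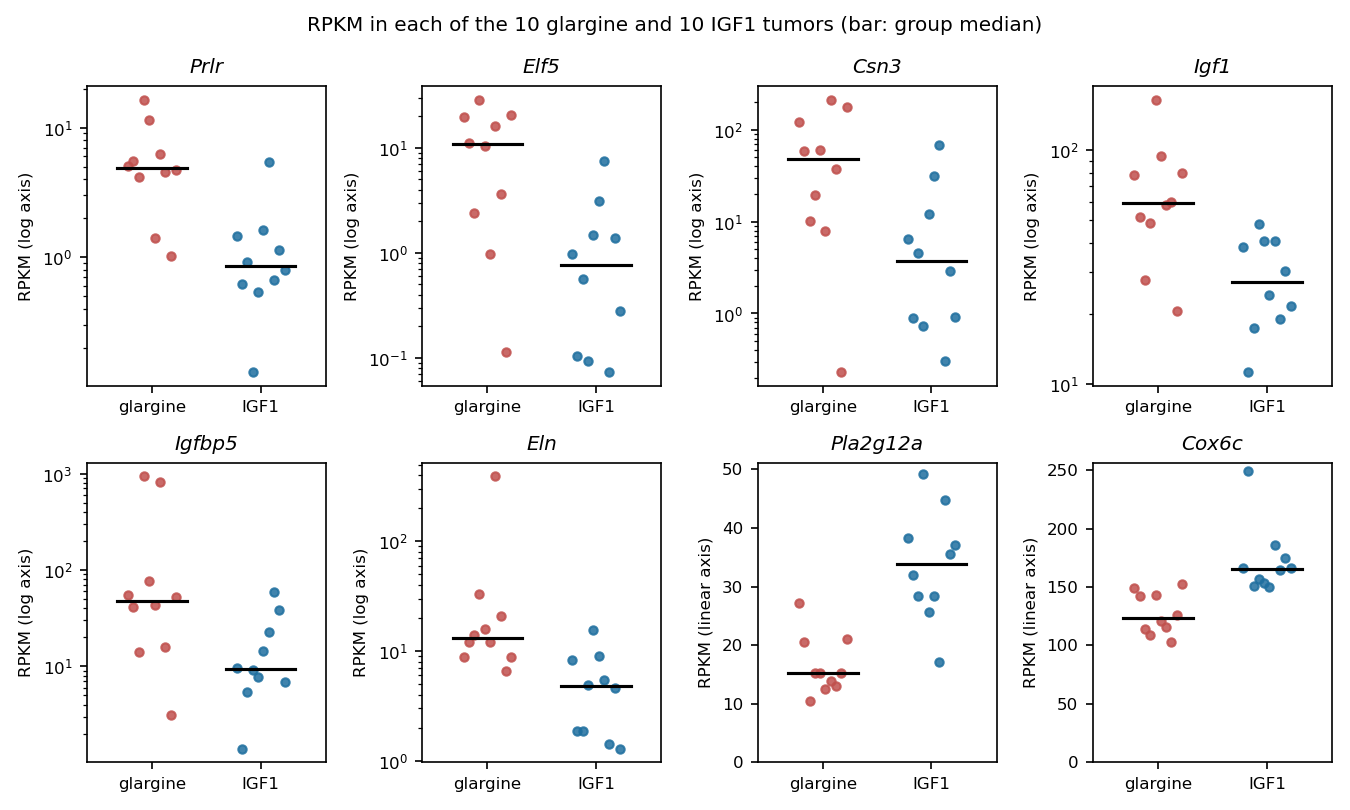
RPKM of 8 genes in each glargine tumor (red) and each IGF1 tumor (blue), 10 points per group, with a bar at the group median; Pla2g12a and Cox6c have linear axes from 0 and the others log axes. The groups overlap in every panel, with Igf1 in 8 of 10 glargine tumors above all IGF1 tumors and Pla2g12a and Cox6c each in 8 of 10 IGF1 tumors above all glargine tumors.

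Milk protein genes had the highest median difference of the 32 gene lists. Of 13 listed genes 12 were tested (Csn1s2b was not), all 12 were above 0 (49.5% over all genes) with a median of 1.55, and 7 were at an unadjusted p under 0.05 with a higher mean in glargine tumors and 0 with a higher mean in IGF1 tumors (4.24% and 2.74% over all genes). Lcn2, a secreted carrier of iron-binding molecules, lay between 3.46 and 642 RPKM (median 72.6) in glargine tumors and between 0.967 and 57.8 (median 5.36) in IGF1 tumors, a difference of 3.42 ± 1.01 (SE), adjusted p = 0.555. Csn3, which encodes kappa-casein, lay between 0.229 and 213 RPKM (median 48.3) in glargine tumors and between 0.305 and 68.7 (median 3.73) in IGF1 tumors, a difference of 2.69 ± 0.88 (SE), adjusted p = 0.570. For Csn3, tumor 73 was the lowest of all 20 although it belongs to the glargine group, and tumors 69, 78 and 47 lay above the highest IGF1 tumor. The untreated tumors had a median RPKM of 79.6 for Lcn2 and 3.36 for Csn3, which is near the glargine median for Lcn2 and near the IGF1 median for Csn3.

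The beta- and alpha-casein genes Csn2 and Csn1s1 are described for their promoters, chosen after their values were seen. Csn2 lay between 0.018 and 316 RPKM (median 23.4) in glargine tumors and between 0.018 and 92.6 (median 2.54) in IGF1 tumors, and Csn1s1 between 0.113 and 206 (median 37.4) and between 0.035 and 60.8 (median 3.41). Glargine tumor 78 and tumor IGF1_145 were the highest of their groups in both. Prolactin acts on such genes through STAT5, which binds TTCNNNGAA, a motif that reads the same on both strands. This motif was in 3 of the 9 milk protein promoters in the table (Csn1s1, Csn2 and Glycam1) and in 7.18% of all promoters searched. The promoters of both casein genes follow, with the match in capitals, to show that it lies at a similar distance from the start, 93 bases before it in Csn2 and 100 bases before it in Csn1s1 (counted from the first base of the match).
Csn2, chr5:87699426-87699675, minus strand: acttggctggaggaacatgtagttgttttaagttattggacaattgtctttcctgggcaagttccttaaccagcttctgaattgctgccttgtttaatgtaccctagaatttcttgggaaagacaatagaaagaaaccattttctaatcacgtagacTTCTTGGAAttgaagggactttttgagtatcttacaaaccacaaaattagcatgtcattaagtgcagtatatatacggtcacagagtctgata
Csn1s1, chr5:87665958-87666207, plus strand: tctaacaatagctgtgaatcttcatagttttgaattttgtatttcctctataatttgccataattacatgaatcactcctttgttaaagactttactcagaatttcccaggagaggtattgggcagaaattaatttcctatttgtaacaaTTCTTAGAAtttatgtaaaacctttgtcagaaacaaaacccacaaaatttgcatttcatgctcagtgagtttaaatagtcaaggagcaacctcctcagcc

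Markers of fat and muscle also differed between tumors. Of 9 tested adipocyte markers all 9 were above 0 (49.5% over all genes), with a median of 1.41, and 7 were at an unadjusted p under 0.05 with a higher mean in glargine tumors (4.24% over all genes). Among these, the hormone leptin (Lep) had a difference of 1.41 ± 0.49 and the adipocyte transcription factor Pparg one of 0.65 ± 0.25 (SE), which were 0.29 and 0.19 with muscle and adipocyte scores as covariates. The adipocyte markers are themselves the base of 1 of these scores. The summed level of the adipocyte markers was 26.9 to 658 RPKM (median 217) in glargine tumors and 36.3 to 187.2 RPKM (median 66.5) in IGF1 tumors, and 6 glargine tumors (70, 64, 67, 78, 47 and 53) were above the highest IGF1 tumor. No adipocyte marker was at 0 in any of the 20 tumors. The 16 skeletal muscle markers summed to 25.3 to 8480 RPKM (median 188) in glargine tumors and 28.6 to 2744 RPKM (median 103) in IGF1 tumors, and were highest in glargine tumors 64, 78, 53 and 47 and in tumors IGF1_135 and IGF1_145. The muscle genes Mb and Myh2 had differences of 1.42 ± 1.18 and 1.10 ± 0.86 (SE). Pvalb was listed at 0 in 2 glargine tumors and 1 IGF1 tumor, and Tnnc2 in 1 glargine tumor.

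The milk genes were highest in glargine tumors 78, 53 and 64, with medians of 4.70, 3.32 and 3.20 log2 units over the IGF1 mean, and all 3 are among those with high muscle and fat markers. Tumor IGF1_145 and glargine tumor 47, with 2418 and 1519 summed RPKM of muscle markers, had milk gene medians of 2.14 and 1.72. The other tumors with high markers had lower milk genes. Glargine tumors 70 and 67, with 658 and 311 summed RPKM of adipocyte markers, had milk gene medians of 0.50 and 0.45, and tumor IGF1_135, with the highest muscle markers of its group (2744 summed RPKM), had -1.23. Tumors 63 and 69, which led the junction genes, had milk gene medians of 1.36 and 1.18 with low muscle markers (51.5 and 25.3 summed RPKM) and adipocyte markers below those of the other glargine tumors named above (47.2 and 98.3). With muscle and adipocyte scores as covariates in limma, the median difference was 1.00 for the milk genes, 0.99 for the junction and protease genes, 0.65 for the luminal genes and 1.10 for the 6 epithelial genes. In the same fit the adipocyte list itself had a median of -0.01. The part of fat, muscle or other tissue in the milk and epithelial gene values was not tested.

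**Figure D2:**
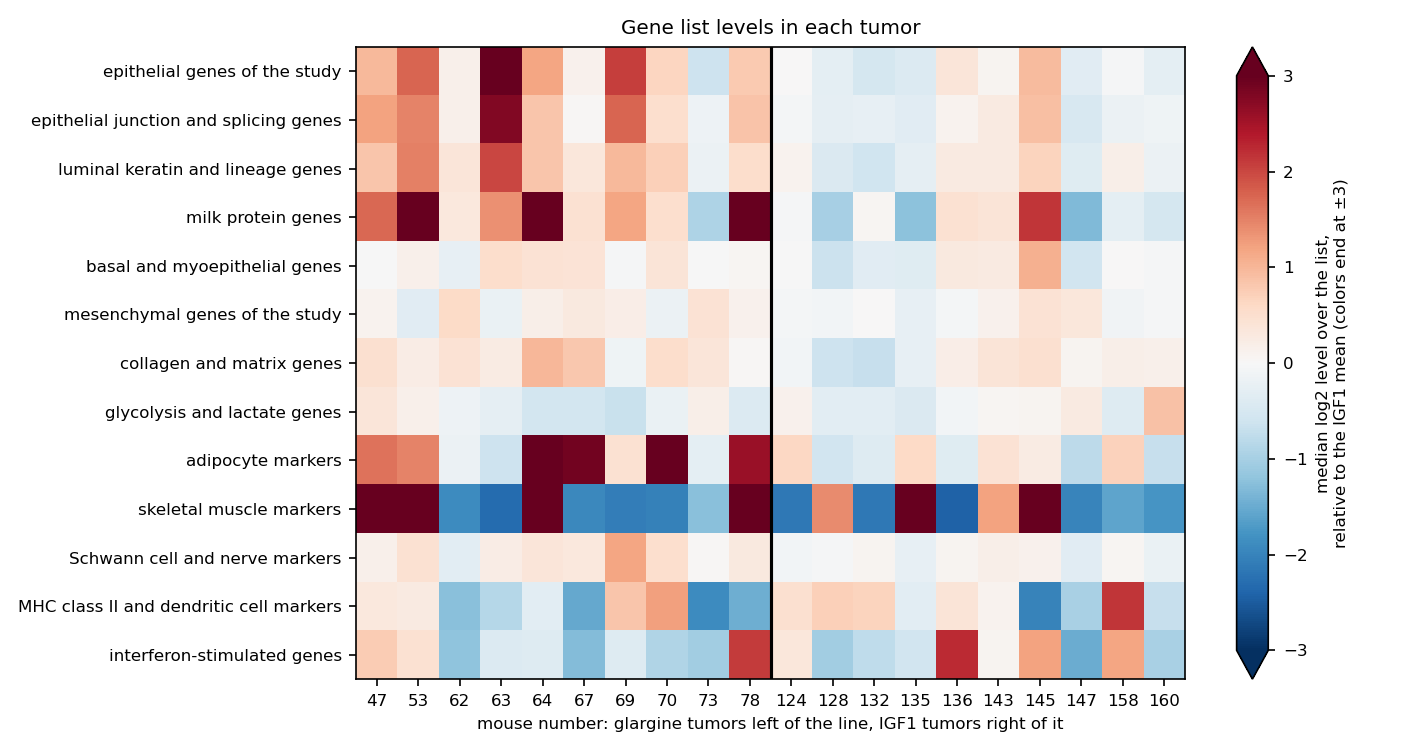
Color gives the median log2 level of a gene list in each tumor (columns, by mouse number) relative to the mean of the IGF1 tumors. Epithelial lists are high in glargine tumors 63, 69 and 53, milk genes in 78, 53 and 64 and, among IGF1 tumors, in IGF1_145, and muscle markers in glargine tumors 47, 53, 64 and 78 and tumors IGF1_135 and IGF1_145.

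Basal and myoepithelial genes, the contractile layer of the gland, were less uneven between the groups. Of 18 listed genes 16 were tested, 14 were above 0 (49.5% over all genes) with a median of 0.26, and none was at an unadjusted p under 0.05 in either direction (4.24% and 2.74% over all genes). The median was 0.17 without tumors IGF1_124 and IGF1_128, 0.09 with the muscle and adipocyte covariates and 0.15 after quantile normalization, and ran from 0.17 (without IGF1_128) to 0.43 (without IGF1_158) with each tumor left out in turn. Itgb4, an integrin that anchors basal cells, had the smallest p of the list, with 2.86 to 22.7 RPKM (median 10.1) in glargine tumors and 0.789 to 19.6 RPKM (median 4.10) in IGF1 tumors. The difference was 1.02 ± 0.62 (SE), unadjusted p = 0.103. Trp63, the basal transcription factor p63, had a difference of 0.63 ± 0.52 and the myoepithelial keratin Krt14 one of 0.29 ± 1.02 (SE).

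The genes for insulin and IGF signaling themselves showed their largest values in the ligand Igf1 and the binding protein Igfbp5. Of 19 listed ligands, receptors and binding proteins 14 were tested, of which 10 were above 0 (49.5% over all genes). Their median was 0.19 (0.30 with the muscle and adipocyte covariates, 0.11 without glargine tumor 63, 0.12 without glargine tumor 62 and 0.05 with all nonzero genes). At an unadjusted p under 0.05 there were 3 with a higher mean in glargine tumors (Igfbp5, Igf1 and Igfbp7) and 0 with a higher mean in IGF1 tumors (4.24% and 2.74% over all genes). Ins1, Ins2, Insrr, Igfals and Igfbp1 were too low to be tested. Igf1 mRNA, made by the mouse itself and counted apart from the injected protein, lay between 20.5 and 164 RPKM (median 59.3) in glargine tumors and between 11.2 and 48.0 RPKM (median 27.3) in IGF1 tumors. For Igf1, 8 of 10 glargine tumors lay above the highest IGF1 tumor, tumors 62 and 73 being the exceptions. The difference was 1.12 ± 0.36 (SE), unadjusted p = 0.00330, adjusted p = 0.570. Untreated, insulin and X10 tumors had median Igf1 values of 51.4, 47.4 and 36.5 RPKM, all between those of the groups compared. Igf1 is also made by adipose and stromal cells. Tumors 64, 67, 78 and 47 were highest in Igf1 (164, 94.3, 79.9 and 78.4 RPKM), and their adipocyte markers lay above those of all IGF1 tumors. So did those of tumors 70 and 53, with 60.1 and 51.8 RPKM of Igf1, and tumor 70 had the highest adipocyte markers. Tumors 62 and 73, with 61.2 and 26.9 summed RPKM of adipocyte markers, had 27.7 and 20.5 RPKM of Igf1. With muscle and adipocyte scores as covariates in limma the difference in Igf1 was 0.62, adjusted p = 0.785. The part of adipose cells in the Igf1 values was not tested.

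Igfbp5, a binding protein that the involuting mammary gland makes in large amounts, lay between 3.14 and 940 RPKM (median 48.1) in glargine tumors and between 1.39 and 59.0 RPKM (median 9.31) in IGF1 tumors, a difference of 2.23 ± 0.69 (SE), adjusted p = 0.555. Glargine tumors 63 and 69 had 940 and 810 RPKM of Igfbp5, the next tumor, glargine 64, had 76.9 RPKM, and the other 7 glargine tumors lay within the IGF1 range. Igfbp2 was highest in tumor 69 as well, with 821 RPKM against a median of 18.9 in glargine and 16.3 in IGF1 tumors. Igf2 varied most, from 0.866 to 3228 RPKM (median 13.2) in glargine tumors and from 0.355 to 1685 RPKM (median 13.0) in IGF1 tumors, a difference of 0.85 ± 1.56 (SE).

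The receptors overlapped widely. Igf1r, the receptor of IGF1, lay between 3.31 and 12.1 RPKM (median 5.398) in glargine tumors and between 3.74 and 7.54 RPKM (median 5.04) in IGF1 tumors, a difference of 0.17 ± 0.20 (SE), unadjusted p = 0.402, which was 0.35 with the muscle and adipocyte covariates (adjusted p = 0.7955) and 0.07 without glargine tumor 63. Insr, the insulin receptor, lay between 5.18 and 11.6 RPKM (median 8.58) in glargine tumors and between 4.03 and 10.5 RPKM (median 7.35) in IGF1 tumors, a difference of 0.21 ± 0.16 (SE), unadjusted p = 0.191, or 0.12 without tumor IGF1_160. These intervals do not exclude small differences in either receptor. The adaptors Irs1 and Irs2 had differences of 0.36 ± 0.28 and 0.09 ± 0.29 (SE), the inhibitory adaptor Grb10 had 0.85 ± 0.48 (SE), and the binding protein Igfbp3 had -0.15 ± 0.32 (SE).

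Lists of downstream genes had median differences of -0.06 to 0.15. Of 42 adaptor and PI3 kinase to mTOR genes, 16 were above 0 (49.5% over all genes) with a median of -0.06 (-0.001 without tumors IGF1_124 and IGF1_128, -0.02 with the muscle and adipocyte covariates, -0.01 without glargine tumor 47). At an unadjusted p under 0.05 there was 1 gene in each direction, a share no higher than the 4.24% and 2.74% over all genes. They were Pik3r1, the regulatory subunit of PI3 kinase, at 0.54 ± 0.22 (SE), and Sesn2, a stress-induced inhibitor of mTOR, at -0.45 ± 0.14 (SE). Sesn2 lay between 2.99 and 7.83 RPKM (median 4.92) in glargine tumors and between 5.31 and 12.2 RPKM (median 6.89) in IGF1 tumors. The 33 RAS to ERK genes had a median of -0.01 (0.002 without tumors IGF1_124 and IGF1_128, 0.04 with the covariates), with the opposite sign under 10 of the 33 alternatives. Of these genes 15 were above 0 (49.5% over all genes) and none was at an unadjusted p under 0.05. Of these, Braf differed by 0.43 ± 0.23 and Nras by -0.26 ± 0.15 (SE), and 6 IGF1 tumors had more Nras than the highest glargine tumor. Of 24 immediate early genes, which growth factors induce within minutes, 4 were at an unadjusted p under 0.05 with a higher mean in glargine tumors (Fos, Egr1, Egr3 and Fosb) and 1 with a higher mean in IGF1 tumors (Jund), against 4.24% and 2.74% over all genes. Their median was 0.10, and 0.04 without tumors IGF1_124 and IGF1_128 and -0.02 without tumor IGF1_132. Fos lay between 20.6 and 127 RPKM (median 40.5) in glargine tumors and between 9.87 and 54.5 RPKM (median 24.1) in IGF1 tumors, a difference of 0.87 ± 0.32 (SE), adjusted p = 0.676. The Id and BMP feedback genes had a median of 0.07 over 14 genes, 0.02 without tumors IGF1_124 and IGF1_128, 0.04 with the covariates, and -0.002 without tumor IGF1_124, with none at an unadjusted p under 0.05. Of these, the BMP inhibitors Grem1 and Smad6 had differences of 1.26 ± 0.86 and 0.27 ± 0.30 (SE). The TGF-beta list had a median of 0.15 over 18 genes (0.06 without tumor IGF1_160), of which 12 were above 0 (49.5% over all genes). Tgfb3 (0.87 ± 0.27, SE) was its only gene at an unadjusted p under 0.05, against 4.24% over all genes on the glargine side. Bmpr2, a BMP receptor, had 0.69 ± 0.39 (SE).

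The mesenchymal genes had a small median difference, and most of them were above 0. The list of 12 holds Zeb2 beside genes named in the study's text. Since these genes had a part in the choice of the groups, their values are a description and not a test. All 12 were tested, 9 of them were above 0 (49.5% over all genes), and their median was 0.15, or 0.04 with the muscle and adipocyte covariates and 0.09 without tumor IGF1_160. Pdgfrb, a receptor of fibroblasts and pericytes, and Wnt5a, a ligand of mesenchyme, had differences of 0.54 ± 0.22 and 0.82 ± 0.37 (SE). Vim lay between 2683 and 6102 RPKM (median 4676) in glargine tumors and between 2435 and 5180 RPKM (median 4056) in IGF1 tumors, a difference of 0.15 ± 0.21 (SE) which became -0.01 after quantile normalization. The transition factors Zeb1 (-0.19 ± 0.28), Zeb2 (0.15 ± 0.23), Snai1 (-0.14 ± 0.27), Snai2 (0.24 ± 0.34) and Twist1 (-0.22 ± 0.34, SE) all had differences smaller than their standard errors. Cdh2, or N-cadherin, had the largest value of the 12 at 1.15 ± 0.69 (SE), and Tcf4 and Klf8 had 0.04 ± 0.15 and 0.09 ± 0.21 (SE).

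Of 36 collagen and matrix genes, 31 were above 0 (49.5% over all genes) with a median of 0.33, and 4 were at an unadjusted p under 0.05 with a higher mean in glargine tumors (Eln, Col5a2, Col12a1 and Col3a1) and 0 with a higher mean in IGF1 tumors (4.24% and 2.74% over all genes). Eln, the gene of elastin, lay between 6.61 and 393 RPKM (median 13.0) in glargine tumors and between 1.28 and 15.5 RPKM (median 4.75) in IGF1 tumors, a difference of 2.06 ± 0.58 (SE), adjusted p = 0.5499. For Eln, the value of 393 RPKM came from tumor 69, and the next highest tumor, 63, had 32.8 RPKM. Col5a2, a fibrillar collagen chain, lay between 204 and 854 RPKM (median 420) in glargine tumors and between 88.8 and 712 RPKM (median 241) in IGF1 tumors, a difference of 0.84 ± 0.30 (SE).

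**Figure D3:**
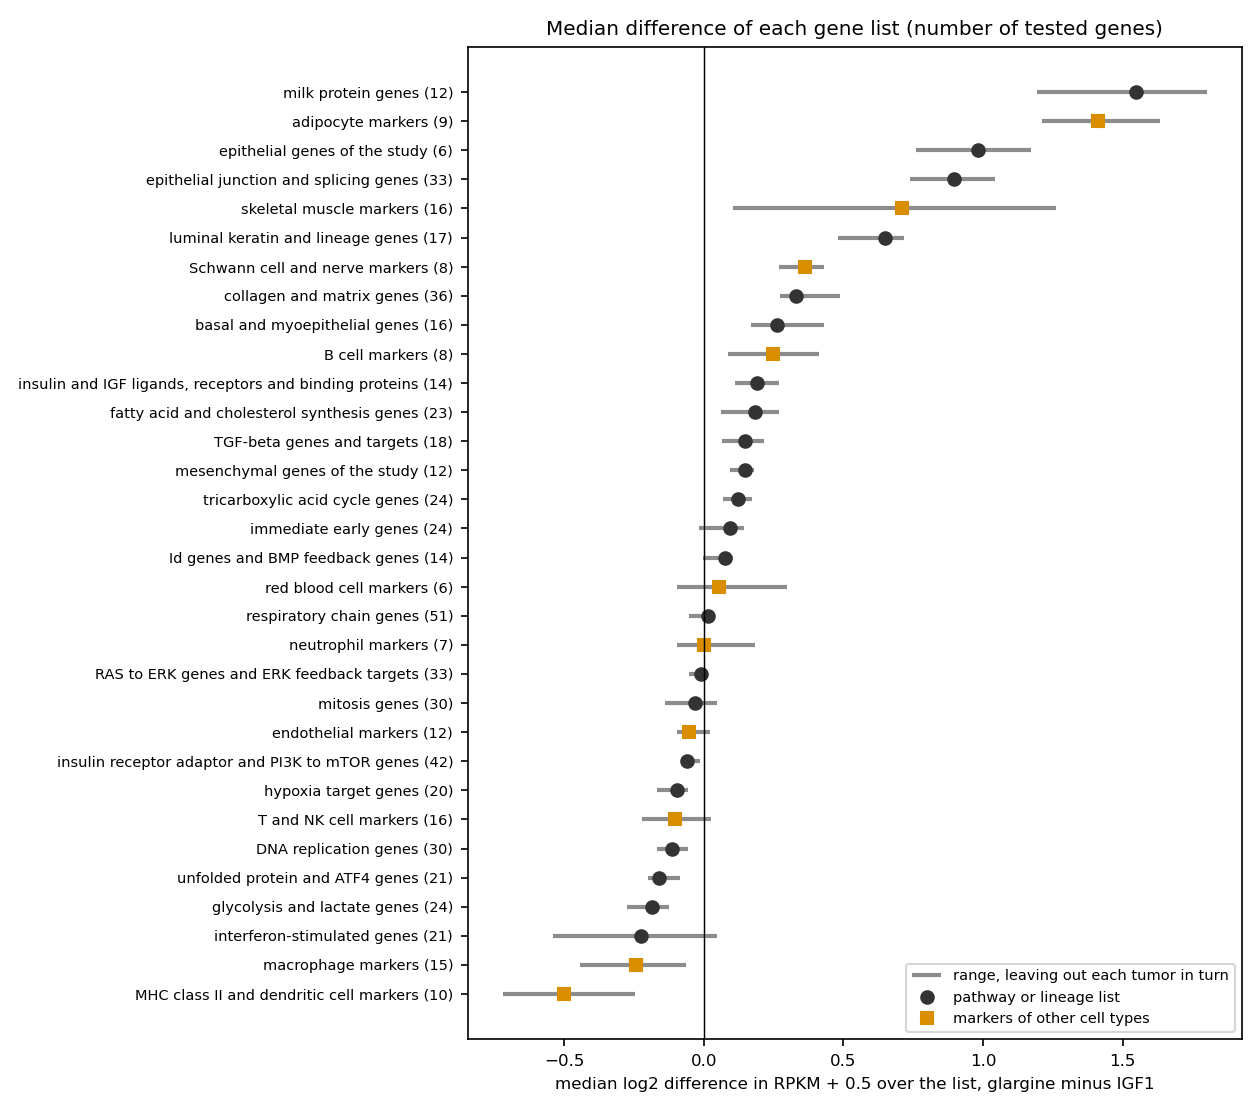
Median log2 difference (glargine minus IGF1) of 32 gene lists, with the number of tested genes in parentheses and a gray line for the range when each of the 20 tumors is left out in turn. Milk protein genes (1.55), adipocyte markers (1.41) and epithelial lists (0.98 and 0.90) lie farthest to the right, and MHC class II markers (-0.50) farthest to the left.

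Lists of metabolic genes had small median differences of both signs. Of 24 glycolysis and lactate genes 4 were above 0 (against 49.5% of all genes), with a median of -0.19, 2 of them (Pgk1 and Pfkfb4) at an unadjusted p under 0.05 with a higher mean in IGF1 tumors and 1 (Aldoc) with a higher mean in glargine tumors, against 2.74% and 4.24% over all genes. Pgk1, which makes ATP in glycolysis, lay between 81.5 and 191 RPKM (median 129) in glargine tumors and between 92.1 and 304 RPKM (median 204) in IGF1 tumors, with 6 IGF1 tumors above the highest glargine tumor and a difference of -0.44 ± 0.21 (SE), unadjusted p = 0.0466. Aldoc, the aldolase of the nervous system, had 11.9 to 82.9 RPKM (median 24.8) in glargine tumors and 4.38 to 20.5 RPKM (median 13.3) in IGF1 tumors. For Aldoc 7 glargine tumors lay above the highest IGF1 tumor, and the difference was 1.12 ± 0.34 (SE), adjusted p = 0.555. With muscle and adipocyte scores as covariates the median of the glycolysis list was -0.05, and without tumor IGF1_160 it was -0.12. The hypoxia list had a median of -0.09 over 20 genes, of which 5 were above 0 (49.5% over all genes). This median was 0.04 with these covariates, -0.06 without tumor IGF1_136 and -0.17 without tumor IGF1_158. P4ha1, a collagen prolyl hydroxylase, was its only gene at an unadjusted p under 0.05 (-0.44 ± 0.20, SE), against 2.74% over all genes on the IGF1 side. Higd1a, a mitochondrial protein, had -0.32 ± 0.22 (SE).

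Of 24 genes of the tricarboxylic acid cycle, 21 were above 0 (49.5% over all genes) with a median of 0.12 (0.07 without glargine tumor 73), and 3 (Idh1, Sdha and Sdhc) were at an unadjusted p under 0.05 with a higher mean in glargine tumors and 0 with a higher mean in IGF1 tumors (4.24% and 2.74% over all genes). Idh1, the cytosolic isocitrate dehydrogenase, had a difference of 0.39 ± 0.13 (SE). The 51 respiratory chain genes had a median of 0.02 (-0.02 without tumors IGF1_124 and IGF1_128, and the opposite sign under 10 of the 33 alternatives), and Cox6c, a subunit of cytochrome oxidase, and Atp5f1, a subunit of ATP synthase, were the 2 at an unadjusted p under 0.05 with a higher mean in IGF1 tumors (2.74% over all genes), with 0 on the glargine side (4.24% over all genes). Cox6c lay between 103 and 152 RPKM (median 123.5) in glargine tumors and between 150 and 249 RPKM (median 166) in IGF1 tumors. For Cox6c, 8 of 10 IGF1 tumors lay above the highest glargine tumor, and the difference was -0.43 ± 0.16 (SE), unadjusted p = 0.00952, adjusted p = 0.668. The X10 tumors had a median of 187.2 RPKM for Cox6c, above both groups, and the untreated tumors had 129 RPKM. Fatty acid and cholesterol synthesis genes had a median of 0.19, or 0.11 with the muscle and adipocyte covariates, 0.06 without tumor IGF1_160 and 0.09 without glargine tumor 62 or tumor IGF1_158, with 21 of 23 above 0 (49.5% over all genes). Scd1 and Acacb were at an unadjusted p under 0.05 with a higher mean in glargine tumors and 0 genes with a higher mean in IGF1 tumors (4.24% and 2.74% over all genes). Scd1, which introduces double bonds into fatty acids, lay between 12.5 and 123 RPKM (median 46.5) in glargine tumors and between 6.81 and 45.6 RPKM (median 21.3) in IGF1 tumors, a difference of 1.46 ± 0.41 (SE), adjusted p = 0.5499. Scd1 was highest in tumors 78, 64 and 70, which also had high adipocyte markers.

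Of 30 mitosis genes 13 were above 0 (49.5% over all genes) with a median of -0.03 (-0.06 without tumors IGF1_124 and IGF1_128, -0.05 with the covariates), and none was at an unadjusted p under 0.05. This median had the opposite sign under 6 of the 33 alternatives and ran from -0.14 (without IGF1_160) to 0.05 (without IGF1_135) with each tumor left out in turn. Among them Cenpf, a kinetochore protein, and Nusap1, a spindle protein, had differences of 0.35 ± 0.23 and 0.26 ± 0.19 (SE). Of 30 DNA replication genes 7 were above 0 (49.5% over all genes). Their median was -0.11, or -0.08 without glargine tumor 64, -0.07 without tumor IGF1_132 and -0.05 without tumor IGF1_135. Mcm7 of the replicative helicase (-0.27 ± 0.13, SE) was the only one of them at an unadjusted p under 0.05, a share near the 2.74% over all genes, and Orc1, of the origin recognition complex, had -0.38 ± 0.21 (SE). The unfolded protein and ATF4 list had a median of -0.16 over 21 genes (-0.09 without tumor IGF1_158), of which 6 were above 0 (49.5% over all genes). Its gene with the smallest p, Ddit3 (CHOP), lay between 12.1 and 49.4 RPKM (median 19.4) in glargine tumors and between 17.2 and 108 RPKM (median 31.6) in IGF1 tumors, a difference of -0.76 ± 0.30 (SE), and Phgdh, an enzyme of serine synthesis, had -0.49 ± 0.25 (SE).

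Among immune markers, the MHC class II and dendritic list had a median of -0.50, with 0 of 10 genes above 0 (49.5% over all genes). No gene of this list was at an unadjusted p under 0.05 (4.24% and 2.74% over all genes). The median was -0.32 without tumors IGF1_124 and IGF1_128 and -0.89 with the muscle and adipocyte covariates, and leaving out 1 tumor gave -0.24 without IGF1_158 and -0.32 without glargine tumor 73. The loading protein gene H2-DMa and the dendritic cell factor Batf3 had differences of -0.69 ± 0.51 and -0.52 ± 0.34 (SE). Summed levels were 512 to 5089 RPKM (median 1436) in glargine tumors and 351 to 12620 RPKM (median 2725) in IGF1 tumors, where tumor IGF1_158 was highest. Macrophage markers summed to 1441 to 4144 RPKM (median 2595) in glargine tumors and to 2102 to 6568 RPKM (median 3393) in IGF1 tumors. Their median difference was -0.24, or -0.12 without tumors IGF1_124 and IGF1_128 and -0.45 with the covariates, and ran from -0.44 (without IGF1_160) to -0.06 (without IGF1_158) with each tumor left out, with -0.64 ± 0.42 for the Fc receptor Fcgr1 and -0.41 ± 0.27 (SE) for the lysozyme gene Lyz2. Interferon-stimulated genes had a median of -0.23, with 1 of 21 above 0 (49.5% over all genes). They were highest in glargine tumor 78 and in tumor IGF1_136, and the median was -0.54 without the first and 0.05 without the second, or -0.57 with the covariates. Its sign thus turned on leaving out tumor IGF1_136. Isg15, a ubiquitin-like protein, and Gbp2, a GTPase, had differences of -0.59 ± 0.55 and -0.38 ± 0.38 (SE). T and NK cell, B cell, neutrophil, endothelial and red blood cell markers had medians of -0.10, 0.25, 0.00, -0.05 and 0.06, with no gene at an unadjusted p under 0.05. With the muscle and adipocyte covariates these medians were -0.60, -0.41, 0.03, -0.13 and -0.19, and they had the opposite sign under 5, 1, 3, 1 and 11 of the 33 alternatives. Without tumors IGF1_124 and IGF1_128 they were -0.02, 0.27, 0.13, -0.01 and -0.15. With each tumor left out in turn they ran from -0.22 to 0.03, 0.09 to 0.41, -0.10 to 0.18, -0.09 to 0.02 and -0.10 to 0.30. Of the T cell genes, the coreceptor Cd4 had a difference of 0.64 ± 0.51 and the kinase Zap70 one of -0.38 ± 0.34 (SE). The antibody genes Igkc and Igj had 1.10 ± 1.25 and 0.76 ± 0.95 (SE), and the neutrophil proteins S100a8 and S100a9 had 0.44 ± 0.80 and 0.45 ± 0.78 (SE). The vascular genes Esam and Tek had -0.21 ± 0.16 and 0.32 ± 0.26, and the red cell genes Slc4a1 and Alas2 had 0.24 ± 0.30 and 0.09 ± 0.44 (SE). Of these markers only Camp, Ly6g, Retnlg and Ms4a1 were listed at 0 in any tumor. Schwann cell and nerve markers summed to 7.32 to 43.8 RPKM (median 15.9) in glargine tumors and 7.05 to 14.1 RPKM (median 12.2) in IGF1 tumors. Of these 8 markers 5 were above 0 and 3 below (49.5% above 0 over all genes), with a median of 0.36, and 2 were at an unadjusted p under 0.05 with a higher mean in glargine tumors (4.24% over all genes). Of those below 0, Prx, a gene of Schwann cells that was named after its values were seen, had a difference of -0.25 ± 0.13 (SE). Sox10, which marks Schwann cells but is also expressed by mammary epithelial progenitors, led this list with a difference of 1.78 ± 0.62 (SE), ahead of S100b with 0.71 ± 0.28 (SE, 0.42 without tumor 69), and was highest in tumors 63 and 69, as were the junction genes.

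**Figure D4:**
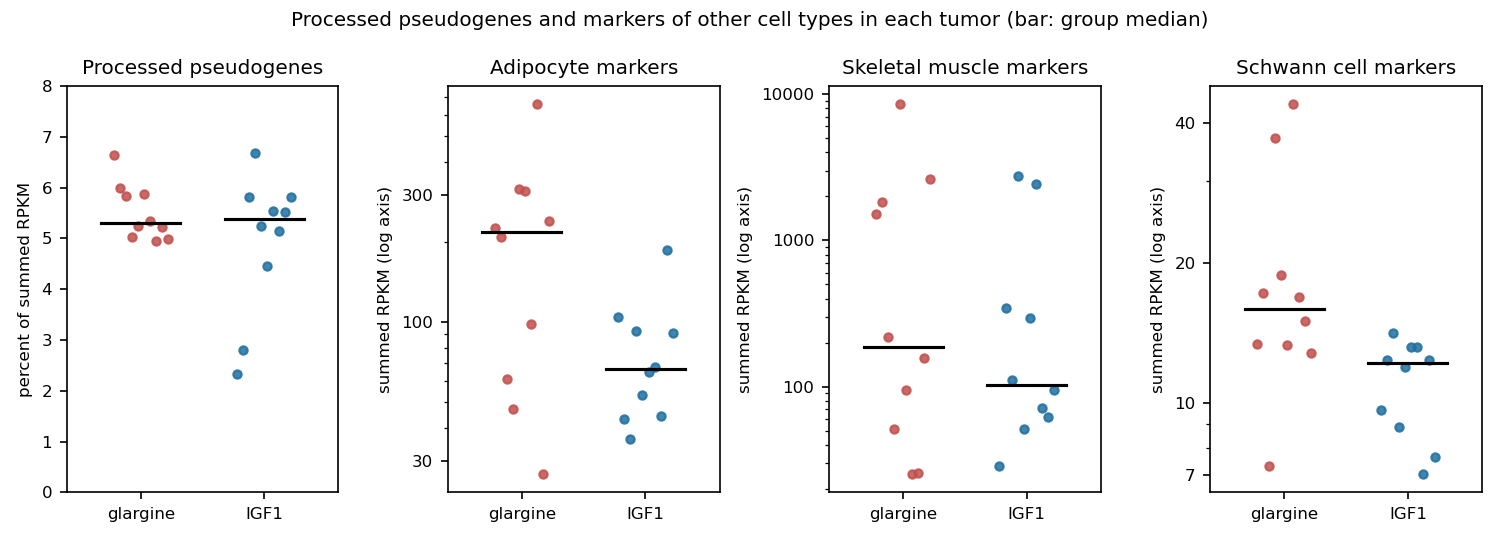
Share of the summed RPKM from processed pseudogenes (linear axis) and summed RPKM of adipocyte, skeletal muscle and Schwann cell markers (log axes), 10 tumors per group, with a bar at the group median. Tumors IGF1_124 and IGF1_128 are the low points in the first panel, at 2.33 and 2.80%, and 6 glargine tumors lie above all IGF1 tumors in the adipocyte panel.

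With pseudogenes and predicted genes set aside, the 10 genes with the smallest p and a higher mean in glargine tumors were Prlr, Scd1, Eln, Slc28a3, Cped1, Fzd1, 2610018G03Rik, Epb4.1l4b, Cd59a and Kcnj15, with log2 differences of 0.87 to 2.06 and adjusted p between 0.517 and 0.5499. Slc28a3, a nucleoside transporter, lay between 0.179 and 5.73 RPKM (median 1.78) in glargine tumors and between 0.052 and 1.29 RPKM (median 0.153) in IGF1 tumors, a difference of 1.35 ± 0.34 (SE). Fzd1, a Wnt receptor, lay between 11.7 and 42.1 RPKM (median 20.9) in glargine tumors and between 6.18 and 25.1 RPKM (median 11.3) in IGF1 tumors, a difference of 0.91 ± 0.25 (SE). For Fzd1, the untreated and insulin medians were 20.2 and 22.1 RPKM, and the X10 median was 16.6 RPKM, all above the IGF1 median. Cd59a, an inhibitor of complement, had a difference of 0.87 ± 0.24 (SE), and its untreated median of 10.9 RPKM was likewise close to the glargine median of 11.3 rather than the IGF1 median of 6.15.

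By the same rule, the 10 genes on the IGF1 side were Pla2g12a, Snord73a, Snrnp70, Nsmce1, Trmt44, Wdr70, Pfdn5, Cars, Eif3c and Rbmx2, with log2 differences between -1.30 and -0.28 and adjusted p between 0.517 and 0.555. Pla2g12a, a secreted phospholipase A2 on chromosome 3 (129878606 to 129895825 in GRCm38), lay between 10.4 and 27.2 RPKM (median 15.2) in glargine tumors and between 17.2 and 49.2 RPKM (median 33.8) in IGF1 tumors. For Pla2g12a 8 of 10 IGF1 tumors lay above the highest glargine tumor, with tumors IGF1_136 and IGF1_145 below it. The difference was -1.01 ± 0.24 (SE), unadjusted p = 0.000145, adjusted p = 0.517, and the untreated, insulin and X10 medians were 14.1, 22.7 and 18.3 RPKM. Of the others, Snrnp70 encodes a protein of the spliceosomal U1 particle, Cars the cysteinyl-tRNA synthetase, Eif3c a subunit of a translation initiation factor and Pfdn5 a subunit of a folding chaperone. Eif3c lay between 67.1 and 93.2 RPKM (median 71.7) in glargine tumors and between 73.4 and 131 RPKM (median 84.6) in IGF1 tumors, a difference of -0.28 ± 0.08 (SE). Nsmce1, a subunit of a DNA repair complex, lay between 30.8 and 57.8 RPKM (median 48.6) in glargine tumors and between 47.4 and 104.7 RPKM (median 67.5) in IGF1 tumors, a difference of -0.48 ± 0.13 (SE), with 7 IGF1 tumors above the highest glargine tumor. Snord73a is a small nucleolar RNA inside the ribosomal protein gene Rps3a1 on the same strand, so its reads and those of its host cannot be told apart by position, and its values (-1.30 ± 0.33, SE) are uncertain. Pfdn5 and Eif3c overlap Myg1 and Gm24596 on the same strand, with the same limit.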

How the data were processed

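Poly-A RNA of the tumors was sequenced on an Ion Proton. Per the labels and the methods, the authors aligned reads with TopHat2 2.0.10 and Bowtie2 to GRCm38 and counted them per gene with HTSeq 0.6.1. The deposited values are RPKM for 37701 genes, and no column of per-sample values was left without a sample. RPKM values are not counts, so the authors' own test (DESeq2 1.2.10) was not run. Values were analysed as log2(RPKM + 0.5), which understates the change of low genes, for 16733 genes, those whose RPKM averaged 0.5 or more across the 50 tumors. All 5 groups entered a limma 3.58.1 fit (R 4.3.3) with an intensity trend and Benjamini-Hochberg adjustment over all tested genes at a threshold of 0.05, tested on simulated data before use. Library sizes were recovered from the steps in the low values, of which at least 94.4% were whole reads in every tumor; intervals from them cover counting error only.

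The members and the gene lists were chosen with earlier results of these data known. Named genes were the 10 with the smallest p in each direction (mean RPKM of at least 1 in either group, without pseudogenes and names starting with Gm), the 2 with the smallest p of each list, and genes of the insulin and IGF system and of the epithelial and mesenchymal sets (values of 1 gene are not reported here). Others are named as chosen after their values were seen, or because they were at an unadjusted p under 0.05 in a list. A planned permutation test of marker levels is not reported, since the marker lists were chosen with results known. Gene classes and coordinates were taken from GENCODE M21 (16551 of the tested genes matched) and promoters from RefSeq GRCm38.p6. Each tumor is one mouse. The control group is titled untreated, while the treatment protocol names a vehicle, and it is used here for side values only. Alternatives were other pseudocounts, filters, scalings, groups in the fit, covariates and left-out tumors. Library size as a covariate, leaving out pseudogenes, voom on estimated reads and leaving out tumors IGF1_124 and IGF1_128 were added after seeing the data. Other tools were Python 3.11.15, numpy 2.4.6, scipy 1.17.1, pandas 2.3.3 and matplotlib 3.10.9.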

Additional observations from a re-analysis of the deposited data

Results flagged for a closer look

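Single tumors stood out in 15 of 206 sets of values (103 named genes in each of the 2 groups), in that the gap from the highest or the lowest tumor to its nearest neighbor, as a share of the whole range of the group on the log2 scale, was above Dixon's 95% critical value for 10 samples. Chance gives this in about 1 in 20 groups, and genes of one tumor are not independent. In glargine tumor 69 the highest values were those of Eln (gap share 0.615), Smad6 (0.593), Igfbp2 (0.538) and S100b (0.496). In tumor IGF1_145 they were those of Trp63 (0.833), Serpinb5 (0.569) and Slc28a3 (0.504), Trp63 and Serpinb5 being genes of basal or epithelial cells. tumor IGF1_158 was highest in Batf3 (0.526) and lowest in Vim (0.520), and tumor IGF1_160 was lowest in Cenpf (0.535) and Pik3r1 (0.535). Cox6c was highest in tumor IGF1_128 (0.577). In the glargine group, Braf was highest in tumor 62 (0.497), Twist1 was highest in tumor 73 (0.499) and Idh1 was lowest in tumor 47 (0.561). The part of tumor composition in these values was not tested.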

How the results depend on the processing

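No gene passed the adjusted threshold (limma) in the reported fit or under any of the 33 alternatives, and the smallest adjusted p of a named gene was 0.1905. Counts at an unadjusted p under 0.05, 709 and 459 as reported (higher mean in glargine and in IGF1 tumors), moved by over 1.5 times to 1440 and 731 with all nonzero genes, 328 on the glargine side at a mean RPKM of at least 5, 442 without pseudogenes and 386 without tumors IGF1_124 and IGF1_128. Leaving out each tumor in turn gave 495 (without tumor IGF1_128) to 912 (without glargine tumor 47) and 319 (without glargine tumor 73) to 675 (without glargine tumor 47). The cause was not tested. Of 32 lists, 18 kept the sign of their median under every alternative. Medians under voom were 1.89 for the epithelial genes of the study (0.98 as reported), 1.61 for the junction genes (0.90), 2.46 for the milk genes (1.55), 0.41 for the basal genes (0.26) and 0.67 for the B cell markers (0.25). With muscle and adipocyte scores as covariates the adipocyte median was -0.01 (1.41) and the muscle median -0.18 (0.71, or 0.11 without glargine tumor 64 and 1.26 without IGF1_135). These lists, with Lep, Pparg, Mb and Myh2 among them, are the base of the scores, so their fall was built into the fit. In that fit, with the reported value in parentheses, log2 differences were 1.75 for Csn3 (2.69), 0.62 for Igf1 (1.12), 0.21 for Acacb (0.72), 0.29 for Igf2 (0.85), -0.25 for Pgk1 (-0.44) and -0.24 for P4ha1 (-0.44), and farther from 0 for H2-DMa at -1.05 (-0.69), Fcgr1 at -0.98 (-0.64), Isg15 at -0.94 (-0.59) and Batf3 at -0.87 (-0.52). They were also nearer to 0 for Lep at 0.29 (1.41), Pparg at 0.19 (0.65), Mb at 0.60 (1.42), Myh2 at 0.26 (1.10), Cd4 at 0.32 (0.64), Tek at 0.004 (0.32), Slc4a1 at 0.04 (0.24), Higd1a at -0.18 (-0.32) and Zeb2 at 0.09 (0.15), and farther from 0 for Igf1r at 0.35 (0.17), Vim at 0.27 (0.15), Zap70 at -0.71 (-0.38), Gbp2 at -0.65 (-0.38) and Esam at -0.31 (-0.21). Signs reversed in 11 of 103 named genes, none past the threshold. With muscle and adipocyte scores as covariates the values were 0.044 for Igfbp3, -0.015 for Snai2, -0.160 for Alas2, -0.141 for Wnt4, -0.048 for Klf8, 0.157 for Snai1, -0.050 for Tcf4, -0.514 for Igj and -0.631 for Igkc. After quantile normalization they were -0.011 for Vim, -0.058 for Wnt4, -0.015 for Irs2 and -0.051 for Klf8, and Wnt4 was -0.003 with a pseudocount of 1. With each tumor left out in turn, the values of the genes that reversed ran from -0.041 to 0.288 for Alas2, -0.060 to 0.332 for Wnt4, -0.065 to 0.257 for Irs2, -0.027 to 0.117 for Tcf4, -0.363 (without IGF1_158) to 0.040 for Igfbp3 and -0.011 to 0.147 for Klf8. Others kept their sign there, with 0.509 to 1.014 for Igj, 0.684 to 1.599 for Igkc, -0.317 to -0.043 for Snai1, 0.088 to 0.380 for Snai2 and 0.067 to 0.231 for Vim. Leaving out 1 tumor also moved Igfbp2 to 0.46 (without glargine tumor 69, 1.02 as reported), Trp53 to 0.19 (without IGF1_145, 0.44), Braf to 0.24 (without glargine tumor 62, 0.43), Grhl2 to 0.56 (without glargine tumor 63, 0.87) and Cenpf to 0.17 (without IGF1_160, 0.35). No paired analysis was possible because the replicate numbers are mouse numbers and no number occurs in both groups. Depth limits low genes, since RPKM near 0 rests on few reads.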
